A study of Mus musculus with 3 samples.

Results

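The AP-1 and BATF factors were described in mouse regulatory T cells as a family of 9 genes out of the 22457 in the deposited count tables. The genes were taken by name as a family, with earlier results of these data known. They were Batf and Batf3, the Jun genes Jun, Junb and Jund, the Fos genes Fos, Fosb and Fosl2, and Atf3. All 9 were found in the tables. PolyA RNA-seq was run on primary regulatory T cells. The mice were adults of 4 months, and the labels trace the cells to a bone marrow haematopoietic cell. There was 1 group, made of 3 libraries numbered 1, 2 and 3 in the labels, which are technical replicates of a single biological replicate. Strain, genotype, treatment and pooling of animals are not given in the labels, and sex was not collected. Each library held a total of 2872350 to 3228215 gene counts.

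AP-1 is a dimer of basic leucine zipper proteins, in which a basic region binds DNA and a zipper of spaced leucines holds the dimer together. Jun proteins pair with each other or with Fos proteins, and most AP-1 genes are switched on quickly by antigen receptor and stress signals through MAP kinases. BATF proteins have the zipper but little else, pair mainly with Jun proteins, and bind composite sites together with IRF4 or IRF8. BATF is known for its part in effector and tissue regulatory T cells.

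The stretch that encodes the DNA-contacting basic motif and the zipper was found in the longest coding sequence of all 9 genes (GENCODE M21). It spanned 141 bases in each. The stretches of the 4 well-counted genes are shown with those of Batf3 and Jund, the close relatives of Batf and Jun that had few counts. Each runs 5′ to 3′ on the coding strand, and capitals mark the leucine codons at every seventh codon of the zipper.
Batf: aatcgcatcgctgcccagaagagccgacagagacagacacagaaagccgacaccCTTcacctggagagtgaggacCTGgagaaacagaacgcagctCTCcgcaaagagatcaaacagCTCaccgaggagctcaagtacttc
Batf3: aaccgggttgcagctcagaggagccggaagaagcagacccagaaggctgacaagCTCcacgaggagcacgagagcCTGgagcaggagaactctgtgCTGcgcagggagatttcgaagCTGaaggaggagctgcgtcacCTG
Jun: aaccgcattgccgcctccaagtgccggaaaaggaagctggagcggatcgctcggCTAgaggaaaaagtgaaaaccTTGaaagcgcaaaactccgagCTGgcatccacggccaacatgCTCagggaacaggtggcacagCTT
Junb: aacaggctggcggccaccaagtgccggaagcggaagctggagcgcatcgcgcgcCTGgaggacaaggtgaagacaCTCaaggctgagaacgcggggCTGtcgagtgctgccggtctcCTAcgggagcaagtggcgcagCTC
Jund: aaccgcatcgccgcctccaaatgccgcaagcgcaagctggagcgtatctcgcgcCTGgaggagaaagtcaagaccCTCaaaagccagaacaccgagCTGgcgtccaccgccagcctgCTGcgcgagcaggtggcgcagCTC
Fos: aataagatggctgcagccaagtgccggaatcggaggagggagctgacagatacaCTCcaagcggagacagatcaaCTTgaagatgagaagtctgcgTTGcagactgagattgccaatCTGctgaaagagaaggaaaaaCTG
Batf carried 4 of these leucine codons and each other gene 5. The basic motif held a serine codon (agc) in Batf and Batf3, at the place of a cysteine codon (tgc or tgt) in the other 7 genes. Over the 141 bases, Jun matched Jund at 110 positions and Junb at 98, while Batf matched Batf3 at 92 and Jun at 62. Fos matched Fosb at 110 positions and Fosl2 at 109. Reads from such related stretches differ at many bases, but how the authors' counting treated reads with more than 1 match is not given in the sources used here.

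Just 4 genes carried nearly all of the family's counts. Batf, Jun, Junb and Fos together held 98.2% of the 2577 counts of the 9 genes, and the 5 others held 47 counts in all. The family as a whole took 0.0277% of all counts. Levels between genes are compared as CPM per kb, where CPM is the count divided by the library's total and multiplied by 1000000, and kb is the length of the coding sequence. Each level is a mean with its SD (n = 3 libraries in every case). That SD covers the spread between these libraries, not between animals. The labels do not say whether the libraries came from 1 RNA or from separate cell preparations, so the SDs and p-values may include differences between preparations. The intervals and the floor of 3 counts reflect counting error alone. In such bulk RNA, fewer cells with a transcript and less of it per cell cannot be told apart.

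**Figure D1:**
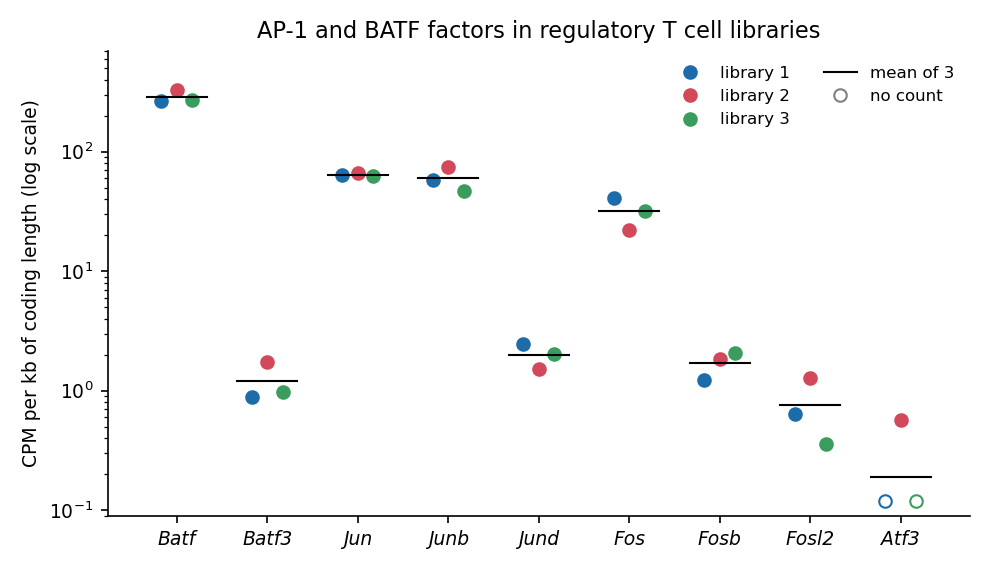
Level of each of the 9 genes in CPM per kb of coding length (log axis) in libraries 1, 2 and 3. Points are libraries, bars are means, and open circles mark libraries with no count. Batf, Jun, Junb and Fos lie between 22.0 and 331, and all other points lie at 2.44 or lower.

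Batf, whose protein pairs with Jun proteins at sites shared with IRF factors, was the most abundant of the family by length-scaled level. It had 318, 401 and 294 counts in libraries 1, 2 and 3, which is 99.2, 124 and 102 CPM. Library 2 was the highest, and the other two lay close together. Its level per kb of coding length was 289.5 ± 36.4 CPM, above 96.5% of the genes with a count. This rank depends on its short coding sequence of 375 bases. By CPM with no length Batf lay above 81.5% of these genes, and per kb of exon length it stood at 77.2 ± 9.70 CPM. The gene lies on chromosome 12 at 85686669 to 85709087 on the plus strand (ENSMUSG00000034266.5, GRCm38, GENCODE M21 gene model). Batf3, the relative known for its need in cross-presenting dendritic cells, had 1, 2 and 1 counts (chromosome 1, 191097847 to 191108945, plus strand, ENSMUSG00000026630.5). Every library was below the level of 3 counts for Batf3, which was 0.929 to 1.04 CPM. Over the pooled counts, 1013 against 4, Batf exceeded Batf3 by 239-fold per kb of coding length (95% exact binomial interval 93.1 to 879). Of the genes that mark cross-presenting dendritic cells, Clec9a had 0, 1 and 1 counts. Xcr1 had 8, 1 and 3 counts, which in library 1 was 2.49 CPM and above the floor. The part of such cells in the Batf3 value was not tested.

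Jun and Junb, the core DNA-binding partners in AP-1 and BATF dimers, were present at like levels, and Jund was far lower. Jun had 207, 214 and 180 counts, or 64.6, 66.3 and 62.7 CPM, and was the steadiest of the well-counted genes. Junb had 193, 247 and 140 counts, or 60.2, 76.5 and 48.7 CPM, highest in library 2 and lowest in library 3. Per kb of coding length Jun stood at 64.4 ± 1.81 CPM and Junb at 59.9 ± 13.5 CPM, and their ranges over the libraries overlapped. The order of the pair was not settled, since Junb led by 1.33-fold when exon length replaced coding length. Jund had 8, 5 and 6 counts, or 2.00 ± 0.464 CPM per kb. Over the pooled counts Jund came to 0.0310 of the Jun level per kb (95% exact binomial interval 0.0185 to 0.0488). Jun lies on chromosome 4 at 95049034 to 95052222 on the minus strand (ENSMUSG00000052684.4), Junb on chromosome 8 at 84974484 to 84978718 on the minus strand (ENSMUSG00000052837.5) and Jund on chromosome 8 at 70698949 to 70700616 on the plus strand (ENSMUSG00000071076.5).

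Jund also had the most GC-rich coding sequence of the family, at 70.7%, against 51.0% to 64.8% for the other 8 genes. Of 147 protein-coding genes with a coding GC content of 70% or more, 14 reached 1 CPM in every library (9.52%), and Jund was 1 of them. In the range of 55% to 60%, where Batf and Fos lie, 57.1% of 4849 genes did. The median level among genes with a count was 0.646 CPM per kb at 70% or more and 13.0 CPM per kb at 55% to 60%. The part of base composition in the low Jund value was not tested. An overlapping antisense gene, Gm11175, had no count in any library.

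**Figure D2:**
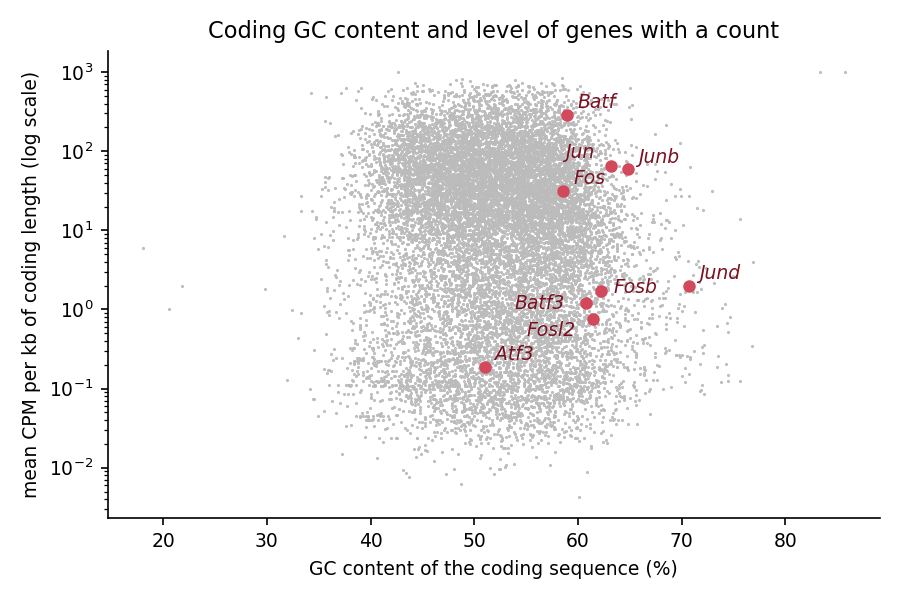
Mean level in CPM per kb of coding length (log axis) against the GC content of the coding sequence. Grey points are all genes with a count and a coding sequence, and red points are the 9 genes. Of the 9, Jund lies farthest to the right at 70.7%, and Batf, Jun, Junb and Fos lie above the other 5 at 58.6% to 64.8%.

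Among the Fos genes, whose proteins bind DNA only as partners of Jun proteins, Fos alone was well counted. It had 151, 81 and 104 counts, or 47.1, 25.1 and 36.2 CPM, highest in library 1 and lowest in library 2. Its level was 31.7 ± 9.65 CPM per kb of coding length, and all 3 libraries lay below every library of Jun and Junb. Per kb of exon length, the ranges of Fos and Jun overlapped. The gene lies on chromosome 12 at 85473890 to 85477273 on the plus strand (ENSMUSG00000021250.9). Fosb, an immediate early relative, had 4, 6 and 6 counts, or 1.71 ± 0.429 CPM per kb (chromosome 7, 19302696 to 19310051, minus strand, ENSMUSG00000003545.2). Fosl2, which encodes the later-acting factor FRA2, had 2, 4 and 1 counts, or 0.754 ± 0.466 CPM per kb (chromosome 5, 32135801 to 32157842, plus strand, ENSMUSG00000029135.9). Over the pooled counts Fos exceeded Fosb by 18.7-fold per kb (95% exact binomial interval 11.3 to 33.1), and Fosl2 came to 0.0243 of the Fos level (0.00969 to 0.0506). Atf3, a stress-induced repressor that pairs with Jun proteins, had no count in libraries 1 and 3 and 1 count in library 2 (chromosome 1, 191170296 to 191218039, minus strand, ENSMUSG00000026628.9). The floor of 3 counts allows Atf3 a level of up to 0.936 CPM in library 1 and 1.04 CPM in library 3.

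By coding length the order was Batf, Jun, Junb, Fos, Jund, Fosb, Batf3, Fosl2 and Atf3. Ranges over the libraries did not overlap between Batf and Jun, between Junb and Fos, or between Fos and Jund, where the level dropped 15.9-fold. All other neighbours in this order overlapped. Of the 9 genes 6 reached 1 CPM in every library, against 48.4% of all genes in the tables, and these were Batf, Jun, Junb, Jund, Fos and Fosb. At 5 or 10 CPM, 4 genes did.

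Batf genes made up most of the family by length-scaled level and Fos genes the least of the 3 subfamilies. Batf and Batf3 took 61.2%, 66.5% and 65.2% of the family's counts per kb of coding length in libraries 1, 2 and 3. The Jun subfamily took 28.9%, 28.3% and 26.6%, and the Fos subfamily 9.96%, 5.02% and 8.14%. The Fos share was lowest in library 2, while the Jun share moved least between libraries. As a share of counts, with no length, the Fos subfamily held 157 of 884 in library 1 (17.8%, 95% exact binomial interval 15.3 to 20.4) and 91 of 961 in library 2 (9.47%, 7.69 to 11.5). In library 3 it held 111 of 732 (15.2%, 12.6 to 18.0). Without length the Jun subfamily exceeded the Batf subfamily, with 46.2%, 48.5% and 44.5% against 36.1%, 41.9% and 40.3%. Within each library the Jun subfamily exceeded the Fos subfamily, by 1.54, 2.50 and 1.71 on the log2 scale per kb of coding length.

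**Figure D3:**
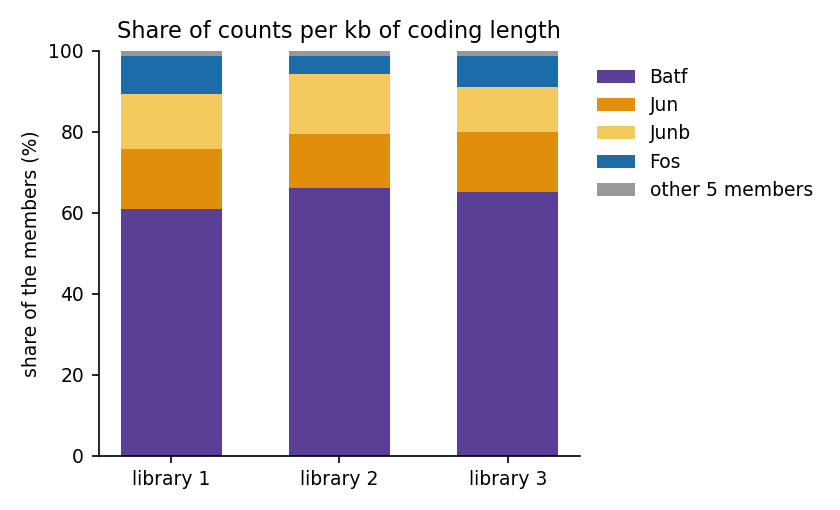
Share (%) of each well-counted gene in the summed counts per kb of coding length of the 9 genes, by library. Batf takes 61.0% to 66.2%, Fos 4.40% to 9.52%, and the thin grey band holds the 5 genes with few counts.

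Fos and Junb differed between the technical libraries by more than counting error, in different directions, and Jun did not pass the same test. The 3 counts of each gene were compared with Poisson expectation by a chi-square test over 10282 genes with a mean count of at least 10. Of these 27.6% passed at a Benjamini-Hochberg adjusted p of 0.05, so 2 of the 4 tested family genes is a small count against a large background. The other 5 genes had too few counts for the test. Each interval below compares a gene's highest and lowest library, picked from the same counts, and does not allow for that choice. Library 1 exceeded library 2 by 1.93-fold in Fos, with a 95% exact binomial interval of 1.46 to 2.55, and the chi-square test gave adjusted p = 0.000127. Library 2 exceeded library 3 by 1.53-fold in Junb, with an interval of 1.24 to 1.90 and adjusted p = 0.00181. Jun differed by 1.03-fold between its highest and lowest library (interval 0.844 to 1.27, adjusted p = 0.956), and this interval does not show that the libraries were equal. Batf, at 1.22-fold between libraries 2 and 1 (interval 1.05 to 1.42), lay at the threshold with adjusted p = 0.0512. It passed with DESeq2 size factors (adjusted p = 0.0429), with plain totals (adjusted p = 0.0210) and without library 3 (adjusted p = 0.0348). It did not pass with a minimum mean count of 5 (adjusted p = 0.0540), with no filter (0.0711), without library 1 (0.112) or without library 2 (0.880). Nor did it pass with GC and length trends removed (adjusted p = 0.856) or with a negative binomial model that adds spread beyond counting error (adjusted p = 1).

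**Figure D4:**
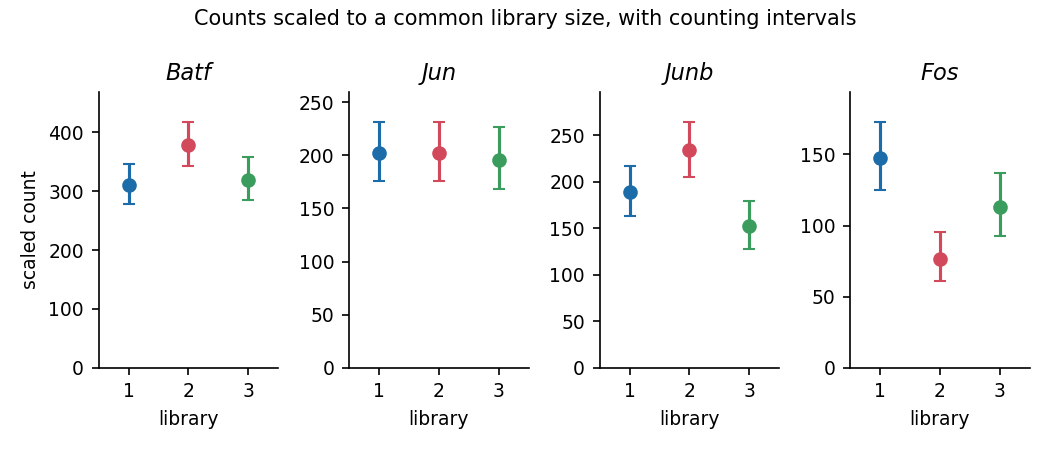
Counts of Batf, Jun, Junb and Fos scaled to a common library size, with exact Poisson 95% intervals, in libraries 1, 2 and 3. Fos is at 148 in library 1 and 76.6 in library 2, Junb is highest in library 2 at 234 and lowest in library 3 at 152, and Jun stays between 196 and 202.

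Both calls were lost without library 2 (chi-square test, adjusted p = 0.184 for Fos and 0.229 for Junb), and without library 3 Junb did not pass either (adjusted p = 0.0870). Fos passed without library 1 (adjusted p = 0.0496) and without library 3 (adjusted p = 5.2e-05). Where each gene was given a spread of 12.5% beyond counting error, as a coefficient of variation in a negative binomial model, 0.914% of genes passed. Neither Fos (adjusted p = 0.489) nor Junb (adjusted p = 0.986) was among them, although Fos had an unadjusted p of 0.0159 there. The spread of 12.5% was estimated from these same libraries and includes the differences being tested, so the model is not an independent check. The coding sequence of Junb has a GC content of 64.8%, and its deviation in library 2 was 0.31 on the log2 scale. Among 799 tested genes at 60% to 65%, the median deviation of library 2 was 0.095, and 13.9% were called and highest in library 2, against 8.71% of all tested genes. Jun, at 63.2% in the same range, differed by 1.03-fold between its extreme libraries. With trends of coding GC content and length removed together, Junb did not pass (adjusted p = 0.155), and Fos passed (adjusted p = 8.11e-05). The part of GC content alone in the Junb values was not tested. Junb overlaps exons of Prdx2, a peroxidase gene on the opposite strand with 473, 559 and 456 counts. No strand setting is given in the sources used here, so reads of the shared part cannot be told apart. Jun overlaps an antisense gene, Junos, that is not in the tables analysed here.

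Markers of other cells differed between the libraries, some of them most in library 2. The 7 neutrophil markers, none of which reached 1 CPM in every library, summed to 1.56, 78.4 and 9.40 CPM in libraries 1, 2 and 3. Most of the library 2 sum was Ngp (1, 96 and 3 counts), S100a8 (0, 77 and 11) and Camp (3, 36 and 0). All 4 tested neutrophil genes passed the chi-square test, highest in library 2, and passed with the negative binomial model. Elane (0, 2 and 0 counts) and Mpo (1, 0 and 0) were not tested. The 5 plasma cell markers, 4 of which reached 1 CPM, summed to 95.1, 511 and 182 CPM. Most of the library 2 sum was Igha (1.25, 312 and 51.9 CPM) and Jchain (28.7, 120.5 and 44.9 CPM), which both passed the chi-square test. Mzb1 and Xbp1 were highest in library 3 and did not pass. The 6 erythroid markers, 1 of which reached 1 CPM, summed to 8.11, 172 and 148 CPM, and the globin genes Hbb-bs, Hbb-bt and Hba-a1 were at 0 in library 1. The 7 B cell markers, all of which reached 1 CPM, summed to 242, 306 and 396 CPM, highest in library 3. Of these 6 were tested and 4 passed the chi-square test, all highest in library 3. Cd22 (172, 165 and 149 counts, highest in library 1) and Blk (22, 30 and 17 counts, highest in library 2) did not pass. Monocyte and macrophage markers summed to 39.6, 27.3 and 56.7 CPM, lowest in library 2, with 4 of 6 at 1 CPM. Csf1r (50, 19 and 46 counts) and Cd68 (37, 23 and 46) passed the chi-square test, lowest in library 2. Lyz2 (20, 29 and 38 counts) was lowest in library 1 and did not pass. The dendritic cell list ran from 540.4 to 758 CPM, with 4 of 7 at 1 CPM, and most of it was Cd74 and H2-Aa, which B cells also express. NK cell markers summed to 133, 162 and 178 CPM. Most of that was Nkg7, with 319, 399 and 356 counts, and Gzma had 17, 21 and 58 counts. CD8 T cell markers summed to 27.8, 34.4 and 39.0 CPM. Most of that was Cd8b1, with 75, 93 and 80 counts, and Cd8a had 14, 18 and 32 counts. Nkg7, Gzma and Cd8a passed the chi-square test, highest in library 3 by scaled count. Cd8b1, highest in library 2, did not pass. Mast cell and basophil markers summed to 9.60 to 10.1 CPM, with Mcpt8 and Fcer1a at 0 throughout. The part of these cells in the Fos and Junb values was not tested. Of the labelled cells, all 7 regulatory T cell markers reached 1 CPM and summed to 3068 to 3104 CPM. Foxp3, the factor that defines them, had 455, 507 and 432 counts and did not pass. Of the 7 markers 2 passed the chi-square test, in different directions. Il2ra was highest in library 3 (380, 343 and 436 CPM) and Nrp1 in library 1 (878, 854 and 751 CPM).

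For each gene that passed, the 2 other passing genes with the closest pattern were named, by distance between centred log2 scaled counts over the 3 libraries among 2230 genes with a mean count of at least 100. For Junb these were Gaa, a lysosomal glucosidase gene, at a distance of 0.0183 (249, 323 and 180 counts) and Trabd at 0.0199 (194, 250 and 139 counts). For Fos they were the zinc finger gene Zscan21 at 0.0416 (282, 157 and 195 counts) and Tpcn2, a lysosomal channel gene, at 0.0532 (147, 83 and 103 counts). With 3 libraries such a likeness is only a description.

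Partners and relatives of the family were read from gene lists. Their counts are to be read against all tested genes, of which 11.1% passed with library 1 the highest, 8.71% with library 2 and 7.75% with library 3. The other AP-1 genes Fosl1, Batf2 and Jdp2 had 4, 1 and 2 counts over the 3 libraries, and none was tested. Among 14 ATF, CREB and CEBP genes with a row, 11 reached 1 CPM. Atf4, the effector of the integrated stress response, led them at 187 ± 13.1 CPM per kb of coding length, followed by Ddit3 (92.6 ± 12.4 CPM per kb) and Atf2, a partner of Jun (88.3 ± 11.8 CPM per kb). Of 11 tested 3 passed, Atf2 highest in library 1 and Atf6b and Nfil3 highest in library 2. Nfil3, a basic leucine zipper repressor, differed the most, with 23, 37 and 12 counts.

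Of 10 MAF, BACH and NFE2 genes 8 reached 1 CPM, and none of 8 tested passed the chi-square test. Nfe2l2, which encodes the oxidative stress factor NRF2, stood at 86.2 ± 2.40 CPM per kb, Nfe2l1 at 42.5 ± 2.16 CPM per kb, and Bach2, a repressor that competes for AP-1 sites in T cells, at 28.7 ± 1.41 CPM per kb. Their median highest-to-lowest ratio was 1.10, against 1.25 for all tested genes. The DNA-binding partners of BATF and AP-1 were all present: Nfatc1 at 122 ± 3.31, Irf8 at 46.5 ± 6.86, Nfatc3 at 37.1 ± 3.30 and Irf4 at 27.6 ± 1.63 CPM per kb. None of these 5 genes, with Nfatc2, passed the chi-square test. Irf4, the main IRF partner of BATF in T cells, was thus lower per kb than Batf, in every library.

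Upstream genes were present in nearly full number. Of 21 MAP kinase pathway genes 19 reached 1 CPM, and Mapk13 had no count. Map2k3, which activates p38, led at 105 ± 5.12 CPM per kb, ahead of Rasgrp1, the Ras activator of T cells (85.4 ± 10.4 CPM per kb). Of 19 tested 4 passed, among them Rasgrp1 and Mapk8, highest in library 1, and Map2k4, highest in library 3. Mapk8 encodes the Jun kinase JNK1 and had 121, 70 and 79 counts, and Map2k4, an activator of JNK, had 109, 76 and 109. Both had fewer counts in library 2 than in library 1. The related genes Mapk9 (163, 185 and 181 counts, lowest in library 1) and Map2k7 (119, 113 and 116 counts) did not pass. Of the receptor-proximal genes, Prkcq (PKC theta) stood at 196 ± 12.1 CPM per kb, and it passed the chi-square test, highest in library 1. The Fos promoter factors Srf, Elk1, Elk3 and Elk4 had a median of 22.3 CPM per kb, led by Elk3 (54.7 ± 4.58), and none passed the chi-square test. Of 4 genes of AP-1 protein turnover 3 passed. Itch, a ubiquitin ligase of Jun proteins, had 736, 498 and 634 counts (1.53-fold, adjusted p = 4.65e-12, chi-square test), Gsk3b was also highest in library 1, and Cop1 was highest in library 3.

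**Figure D5:**
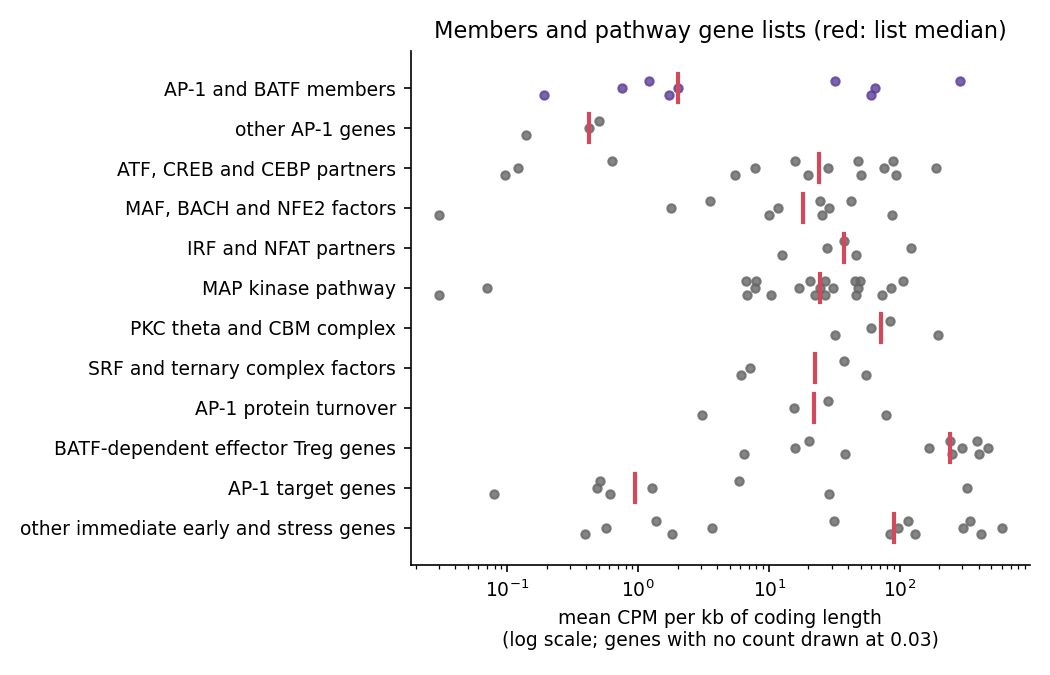
Mean level in CPM per kb of coding length (log axis) of the 9 AP-1 and BATF genes (purple) and of the genes of 11 pathway lists (grey), with list medians in red. The 9 genes split into 4 at 31.7 or more and 5 at 2.00 or less, and the list of effector regulatory T cell genes has a median of 240.5.

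Genes of effector regulatory T cells, several of which are known to depend on BATF, were abundant beside Batf. All 11 reached 1 CPM, with a median of 240.5 CPM per kb of coding length. The median over all genes was 1.44, which includes 7345 genes with no count. The list was made of genes known in these cells, and a link between their levels and Batf was not tested. Tigit, an inhibitory receptor gene (468 ± 53.4), the costimulator gene Icos (398 ± 14.8) and Ctla4 (387 ± 15.3 CPM per kb) led the list. Il1rl1, which encodes the IL-33 receptor ST2, and Areg, which encodes the repair factor amphiregulin, were at the low end at 15.8 ± 3.13 and 6.45 ± 1.39 CPM per kb. Of 11 tested 4 passed: Tigit, Gata3 and Ccr8 highest in library 2, and Klrg1 highest in library 3. Ccr8, a chemokine receptor gene of effector cells, had 583, 646 and 435 counts. Of 8 textbook AP-1 targets 3 reached 1 CPM, against 48.4% of all genes in the tables. Their median was 0.948 CPM per kb, against 1.44 over all genes, so low levels were not particular to these targets. Cd69, the early activation antigen, stood at 326 ± 14.9, Tnf at 28.8 ± 3.30 and Mmp9 at 5.84 ± 1.68 CPM per kb, and none of these 3 passed the chi-square test.

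Other immediate early genes that passed were highest in either library 1 or library 2. Of 14 such genes 10 reached 1 CPM, with Nfkbia (598 ± 9.77), Btg2 (413 ± 14.0) and Zfp36 (344 ± 23.0 CPM per kb) at the top, and none of these 3 passed. Of 10 tested 3 passed. Dusp1, a MAP kinase phosphatase gene, had 454, 336 and 383 counts and the same order of libraries as Fos (1.40-fold, adjusted p = 0.000133, chi-square test). Egr1 had 127, 198 and 142 counts and was highest in library 2 (1.51-fold, adjusted p = 0.00810, chi-square test), as was Nr4a1. The heat shock genes Hspa1a and Hspa1b had 10 or fewer counts each over all libraries.

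Promoter windows of RefSeq (GRCm38.p6), from 250 bases before to 50 after the start, were matched for all 9 genes and searched on both strands. The AP-1 site TGACTCA was in none of the 9 and in 5.20% of 32851 windows of this length. The CArG box, the binding site of SRF, was in none and in 1.63% of all windows. The letters TATAAA were in 2, those of Fos and Junb, and in 13.6% of all windows. The match began 33 bases before the start in Fos but at the start itself in Junb. The start used for Jund lies upstream of its GENCODE M21 gene model. These matches say nothing of sites outside the windows or of sites with other letters.

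Counts per coding base were also compared with the ratios between libraries. Batf had 0.900 counts per coding base, Junb 0.187 and Fos 0.0982. The log2 ratio of the library 3 total to the library 1 total was -0.16. Gene by gene, the median log2 ratio of raw counts in library 3 to library 1 was -0.11 over 891 genes that had 0.5 to 1 counts per base, the range of Batf, and -0.04 over 158 genes with 1.5 or more. Over 1814 genes at 0.05 to 0.1, the range of Fos, it was -0.21. For library 2 to library 1, the library where Batf was highest against the one where it was lowest, the median was 0.13 in the range of Batf, against 0.0096 for the totals, and 0.04 over the 158 densest genes. The part of either shift in the Batf values was not tested.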

How the data were processed

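The 3 regulatory T cell libraries came as tables of deposited gene counts, 1 per technical replicate. Per the labels and the file descriptions, the authors aligned reads to mm10 and counted them per gene with GENCODE M4, and from their whole-number values the deposited columns are raw counts. Which aligner and counting program, strand setting and duplicate handling were used is not given there.

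Names, positions and coding and exon lengths were taken from GENCODE M21 (GRCm38). Of 22457 identifiers 22195 matched, and the others held 0.117% of the counts. CPM used library totals (3206781, 3228215 and 2872350), and levels between genes used the longest coding sequence. Libraries were compared by Pearson's chi-square of each gene's counts (mean count of at least 10) against Poisson expectation, with TMM-scaled totals from edgeR 4.0.16 in R 4.3.3 and Benjamini-Hochberg adjustment at 0.05 over all 10282 genes. There was 1 group, so conditions were not compared, and p-values measure spread between these libraries. The alternatives tried were library sizes by DESeq2 1.42.0 or by totals alone, a lower or no count filter, edgeR's common dispersion in a negative binomial model, removal of GC and length trends, exon length, no length, and leaving out each library. The family genes and the lists were chosen with earlier results of these data known. Named list genes were the 3 highest per kb and up to 3 passing genes with the largest ratios, and genes named beyond these were chosen after their values were seen. Some genes that the rule names are not reported here. Of 169 list entries 168 matched; Cebpd did not. Scripts ran in Python 3.11.15 with scipy 1.17.1 and pandas 2.3.3.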

Additional observations from a re-analysis of the deposited data

How the results depend on the processing

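Of the 4 tested family genes 2 passed, and 3 did with DESeq2 size factors or plain totals, where Batf was added. The number was 0 with the negative binomial model, 1 with GC and length trends removed, and 0 to 2 when 1 library was left out. Over all genes 94 passed with the negative binomial model, and 960 to 2014 when 1 library was left out, against 2836. The adjusted p of Jun was 0.611 with trends removed, and library 3 was then the highest. With exon length the shares of the Batf, Jun and Fos subfamilies were 54.7%, 34.0% and 11.3%, and with no length 39.4%, 46.4% and 14.1%. The log2 ratio of Junb to Jun was -0.13, and it changed sign to 0.39 with exon length and to 0.010 without library 3 (range -0.27 to 0.010 when 1 library was left out). With exon length the log2 ratios of Jund to Jun, Fos to Fosb and Fosl2 to Fos were -4.07, 5.78 and -7.80. The cause of these changes was not tested, other than that a new length rescales each gene. At this depth 5 of the 9 genes had under 10 counts per library, so differences between libraries were not detectable for them.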
